A study of Mus musculus with 13 samples.

Results

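The mouse miRNAs numbered mir-6896 to mir-7094 are a run of registry numbers, and every row with a number in that range was taken from both deposited count tables, whatever its values. This gave 185 of the 1127 precursor (hairpin) rows (16.4%) and 274 of the 1297 mature rows (21.1%), which carry 182 and 179 distinct numbers. The small RNA-seq libraries came from thymic iNKT cells, a T cell lineage whose invariant TCR binds lipid antigens, sorted as live TCRβ+ tetramer+ cells from the thymus of mice aged 21 to 25 days, with males and females in each genotype. The 6 wild type (WT) mice were C57BL/6 controls, and the 7 *Tet2/3* DKO mice (genotype Tet2-/-Tet3flx/flxcd4cre) lack *Tet2* in the whole animal and *Tet3* in cells that have expressed the CD4 cre transgene, with 1 library per mouse. The study measured small RNAs because *Drosha*, the nuclease that cuts most miRNA hairpins out of their primary transcripts, was of interest in these cells. Its question for the miRNAs described here is whether they differed between the genotypes.

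Most miRNA hairpins are released by DROSHA and then cut by DICER. A mirtron is a hairpin that lies in an intron and takes 1 or both of its ends from splicing instead. When the whole intron is the hairpin, the spliced lariat is opened by the debranching enzyme and passes to DICER without DROSHA, and when only 1 end is set by a splice site, the remaining tail has to be trimmed.

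The positions of the hairpins bear on the name mirtron, and splice sites marked their 3′ end far more often than their 5′ end. Of the 185 listed hairpins, 162 matched a RefSeq hairpin with coordinates on GRCm38.p6. All 162 lay in, or across an end of, an annotated GENCODE intron on the same strand, in 159 host genes. Those across an end reached at most 30 bases past it (mir-7025). Of 692 other hairpins of the table that had coordinates, 347 lay in or across an end of an annotated intron on the same strand. In 150 of the 162 (92.6%) the last base of the hairpin was the last base of the intron, against 16 of those 692 (2.31%). The first base of the hairpin was the first base of the intron in 14 (8.64%), and both ends coincided in 11 (6.79%), so the intron as a whole was the hairpin in few of them. A further 139 shared only the 3′ end, 3 shared only the 5′ end and 9 shared neither. The host introns had a median length of 489.5 bases and 48 of them were at most 150 bases long. The hairpins were short, with a median of 66 bases against 83.5 bases for the others. 28 of the 162 also overlapped an annotated exon on the same strand, such as a retained intron, where a piece of the host transcript would carry the same letters.

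**Figure D1:**
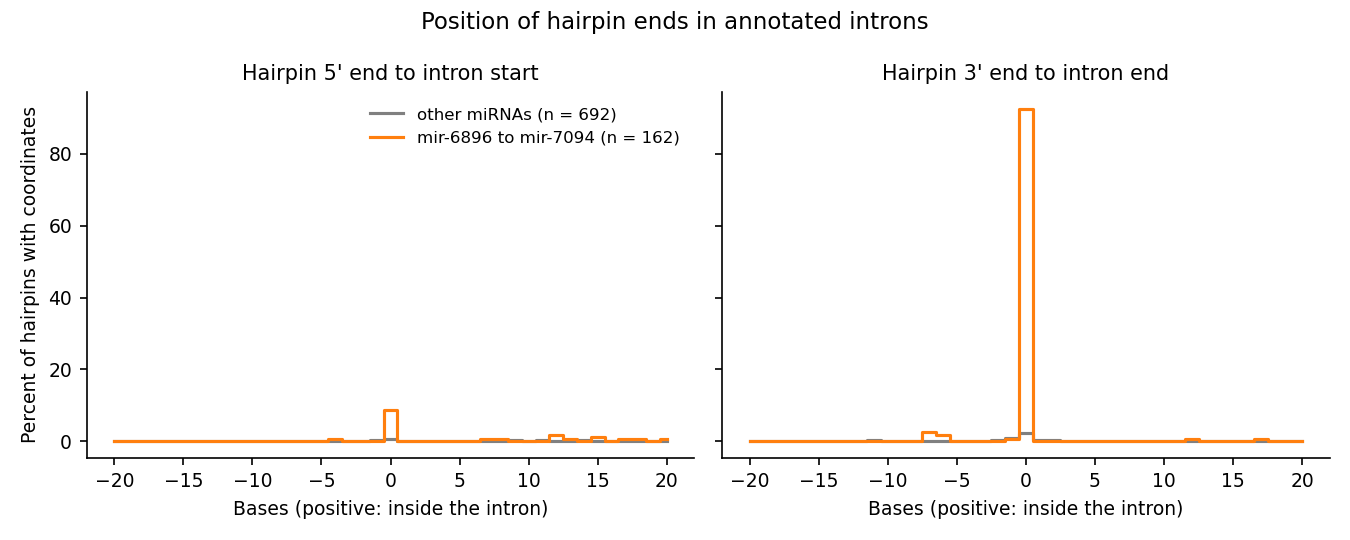
Distance in bases between the ends of each hairpin and the ends of the annotated intron that it lies in or overlaps, as a percent of the hairpins with coordinates, for mir-6896 to mir-7094 (orange, n = 162) and for the other miRNAs of the table (grey, n = 692). At the 3′ end 92.6% of the orange hairpins sit at distance 0, and at the 5′ end 8.64% do.

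The sequences show the same 3′ splice site. They are printed for the 10 miRNAs with enough counts to be tested and for mir-7058, because the measurements below turn on which stretch of each hairpin was counted. They are RefSeq hairpins on GRCm38.p6, 5′ to 3′, with the annotated mature arms in capitals.
mir-7034: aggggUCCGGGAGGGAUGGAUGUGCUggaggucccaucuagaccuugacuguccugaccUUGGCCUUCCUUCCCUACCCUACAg
mir-7003: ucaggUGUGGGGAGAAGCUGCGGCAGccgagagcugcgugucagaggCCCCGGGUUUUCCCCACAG
mir-7035: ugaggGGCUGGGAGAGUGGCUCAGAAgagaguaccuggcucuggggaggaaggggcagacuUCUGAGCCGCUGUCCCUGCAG
mir-7086: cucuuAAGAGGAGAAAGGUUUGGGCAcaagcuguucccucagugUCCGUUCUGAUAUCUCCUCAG
mir-7071: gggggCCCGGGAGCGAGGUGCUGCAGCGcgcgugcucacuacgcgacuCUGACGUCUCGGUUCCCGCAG
mir-7049: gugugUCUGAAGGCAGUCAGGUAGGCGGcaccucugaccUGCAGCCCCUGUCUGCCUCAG
mir-6916: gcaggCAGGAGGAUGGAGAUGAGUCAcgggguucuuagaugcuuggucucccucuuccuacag
mir-7009: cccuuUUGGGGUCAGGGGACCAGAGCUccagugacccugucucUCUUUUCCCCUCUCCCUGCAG
mir-6990: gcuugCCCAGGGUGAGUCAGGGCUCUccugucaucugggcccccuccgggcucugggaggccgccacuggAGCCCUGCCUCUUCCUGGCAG
mir-6946: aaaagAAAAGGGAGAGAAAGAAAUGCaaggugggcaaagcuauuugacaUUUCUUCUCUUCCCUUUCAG
mir-7058: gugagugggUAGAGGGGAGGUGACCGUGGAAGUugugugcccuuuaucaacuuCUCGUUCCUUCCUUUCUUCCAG

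All 10 of the tested miRNAs end at the 3′ end of their intron, and mir-7058 also begins at its first base. Introns end in AG, usually preceded by C or U, and are rich in pyrimidines just upstream. Of the 162 hairpins 79.0% ended in CAG, against 4.19% of the other hairpins. The 3p arm, which reaches the splice site, had a median pyrimidine content of 72.2% against 54.5% in other miRNAs, and the 5p arm that pairs with it had 31.8% against 50%.

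Bases 2 to 8 of a mature miRNA, the seed, are the main part that pairs with its targets. The 4 tested mature arms follow with the seed in capitals, beside a pair of 5p arms in which the same seed recurs.
miR-7009-3p: uCUUUUCCccucucccugcag
miR-6990-5p: cCCAGGGUgagucagggcucu
miR-6946-3p: uUUCUUCUcuucccuuucag
miR-6916-5p: cAGGAGGAuggagaugaguca
miR-7034-5p: uCCGGGAGggauggaugugcu
miR-7071-5p: cCCGGGAGcgaggugcugcagcg

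The 5p arms of mir-7034 and mir-7071 share the seed CCGGGAG, but miR-7034-5p is not among the mature rows and miR-7071-5p had 2 counts in all. The seed of miR-7003-5p (2 counts in all) recurred in miR-491-5p, which is outside the range. The seed of miR-6990-5p recurred in miR-7032-5p (2 counts in all) and that of miR-6916-5p in miR-6942-5p (7 counts in all), while the seeds of miR-7009-3p and miR-6946-3p were found in no other mouse miRNA of the RefSeq table.

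Nearly every row of the range was detected, but at very few counts. Of the hairpins, 183 of 185 rows had at least 1 count, 21 of them in 1 library only and 66 in at most 3 libraries, and 9 had counts in all 13. Only 43 reached 10 counts in any library, so 142 (76.8%) stayed under 10 in every mouse, against 48.0% of the 942 other hairpins. Of the mature sequences, 271 of 274 rows had a count, 86 in 1 library only, 6 were present in all 13, and 242 (88.3%) stayed under 10 everywhere against 46.9% of the 1023 others. In a single mouse between 55 and 101 of these hairpins and between 51 and 105 of these mature sequences were seen. The lowest number in *Tet2/3* DKO for each table, 55 hairpins and 53 mature sequences, compares with a highest of 101 and 105 in that genotype, and libraries differed in depth. At this depth a row without counts cannot be called absent.

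Together the rows made up a very small part of each library. They held 10281 of 15499846 hairpin counts (0.0663%) and 4179 of 36200581 mature counts (0.0115%) over the 13 mice. Total hairpin counts per library ranged from 469117 to 1110226 in WT and from 728653 to 1910526 in *Tet2/3* DKO, and total mature counts ranged from 1110852 to 2582057 in WT and from 1837631 to 4361963 in *Tet2/3* DKO. A single hairpin, mir-7034, accounted for 4752 counts, or 46.2% of the hairpin counts of the range, and ranked 137 in the whole table. The most counted mature sequence, miR-7009-3p, had 489 counts, or 11.7% of the mature counts of the range, and ranked 292.

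The summed hairpin counts of replicates 1 to 6 of WT were 500, 412, 770, 706, 637 and 607, and those of replicates 1 to 7 of *Tet2/3* DKO were 1196, 1057, 806, 1087, 739, 1106 and 658. Against library depth this was 0.0744% ± 0.0168 of the counts in WT (SD, n = 6) and 0.0665% ± 0.0137 in *Tet2/3* DKO (SD, n = 7), a difference smaller than the SD of either genotype. The log2 ratio of these means was -0.16, and on the TMM-scaled library it was -0.50. Without mir-7034 the shares were 0.0499% ± 0.0175 and 0.0314% ± 0.00603, and the genotypes still overlapped. The highest hairpin share of each genotype was that of its shallowest library, WT replicate 1 at 0.107% and *Tet2/3* DKO replicate 7 at 0.0903%.

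In the mature table the genotypes stood apart by a narrow margin. Summed counts in WT were 244, 201, 362, 367, 402 and 276, and in *Tet2/3* DKO 386, 330, 294, 367, 369, 341 and 240. The share was 0.0164% ± 0.00308 in WT (lowest 0.0138%, median 0.0154%, highest 0.0220%) and 0.00987% ± 0.00182 in *Tet2/3* DKO (lowest 0.00790%, median 0.00951%, highest 0.0131%), so that every WT mouse was above every *Tet2/3* DKO mouse. As for hairpins, the highest share of each genotype was that of its shallowest library, WT replicate 1 and *Tet2/3* DKO replicate 7. The *Tet2/3* DKO libraries were deeper on average, and the part of depth in this gap was not tested. Without miR-7009-3p the means were 0.0128% and 0.00951% and the genotypes overlapped, since the lowest WT share was 0.0101% and the highest *Tet2/3* DKO share 0.0122%. No test was applied to these sums, because the rows were chosen with results of these data known. In bulk RNA from sorted cells, fewer cells of a kind that carry a miRNA and less of it per cell cannot be told apart.

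**Figure D2:**
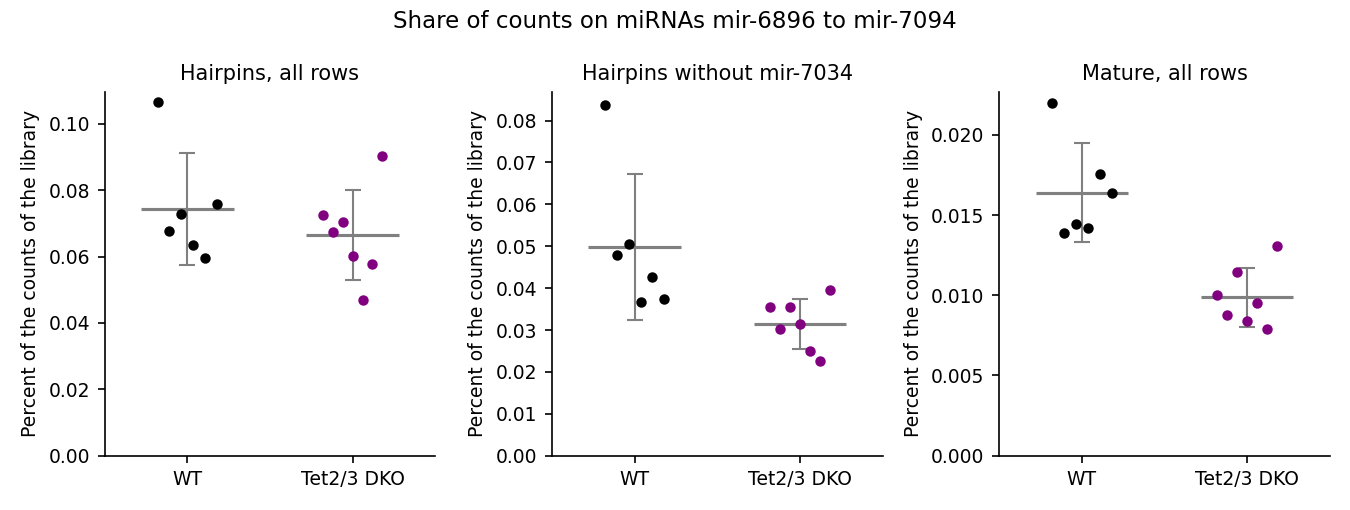
Percent of the counts of each library that fell on miRNAs in the range mir-6896 to mir-7094, one point per mouse, with the mean and SD of WT (black, n = 6) and *Tet2/3* DKO (purple, n = 7). The left panel holds all 185 hairpin rows, the middle panel leaves out mir-7034, and the right panel holds all 274 mature rows, where the lowest WT value (0.0138%) is above the highest *Tet2/3* DKO value (0.0131%).

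For several of these miRNAs the hairpin had far more counts than the arms listed in the mature table, and for others far fewer. Counts on the hairpin of mir-7034 were 4752, against 6 on its listed arm, and the corresponding values were 728 and 2 for mir-7003, 197 and 7 for mir-7035, 182 and 2 for mir-7086, 176 and 7 for mir-7071 and 160 and 22 for mir-7049. The reverse held for miR-7009-3p, with 489 counts where the hairpin had 12, and for miR-6990-5p, with 88 where the hairpin had 34. The miRNAs mir-6946 (114 on the hairpin, 73 on the 5p arm and 125 on the 3p arm) and mir-6916 (139 on the hairpin, 123 on the 5p arm) had more than 100 counts in both tables. Among miRNAs with at least 100 counts in all, more than 95% were on the hairpin for 5 of 22 in this range (22.7%) and for 31 of 250 others (12.4%), whereas with at least 20 counts in all it was 13 of 105 (12.4%) and 73 of 409 (17.8%), the opposite order. RefSeq also annotates miR-7034-5p, miR-7003-3p, miR-7049-3p and miR-7086-3p, which are not among the rows of the mature table. The 3p arm of mir-7009 lies inside its hairpin, so most of its 489 counts were not also counted on the hairpin, which had 12. For miRNAs with fewer counts on the arms than on the hairpin, the deposited tables do not show whether any read was counted on both. They also do not show where along a hairpin its reads lay.

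**Figure D3:**
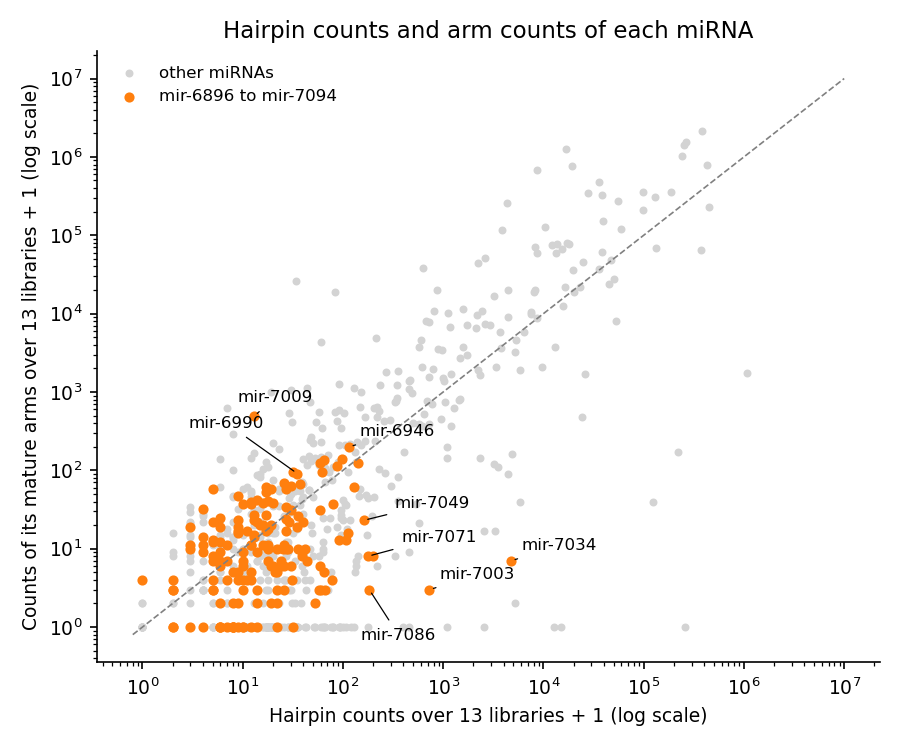
Counts on each hairpin (horizontal) and on its mature arms (vertical), each summed over the 13 libraries with 1 added, on log scales, for mir-6896 to mir-7094 (orange) and other miRNAs (grey). The dashed line marks equal counts, mir-7034 lies far below it with 4752 hairpin and 6 arm counts, and mir-7009 lies above it with 12 hairpin and 489 arm counts.

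Only 7 of the hairpins and 4 of the mature sequences had enough counts to be compared between genotypes. Of these, mir-7071, mir-7086, mir-7049 and mir-7003 were lower in *Tet2/3* DKO among the hairpins, and miR-7009-3p, miR-6990-5p and miR-6946-3p among the mature sequences, while none of the 11 was higher, also at an unadjusted p under 0.05. The test was edgeR's quasi-likelihood test over all 350 tested hairpins or 401 tested mature sequences with Benjamini-Hochberg adjustment and a threshold of 0.05, and it called 27.1% of all tested hairpins lower and 32.6% higher, and 27.4% of all tested mature sequences lower and 28.2% higher. A miRNA this rare passes the count filter through the genotype in which it is high, so the number of falls among those that passed says nothing about the other 178 hairpins and 270 mature sequences. All changes are relative to the rest of the library. CPM values are scaled by TMM factors.

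The hairpin mir-7071 lies at chr8:88138206-88138274 (plus strand) in an intron of 117 bases of *Heatr3*, which encodes a HEAT repeat protein, with the pseudogene *Gm9988* on the opposite strand. It had 17 to 34 counts in WT (median 25.5) and 0 to 6 in *Tet2/3* DKO (median 1). No mouse of one genotype reached the other, as for 32% of all tested hairpins, and mean CPM fell from 39.2 ± 18.7 (SD, n = 6 WT mice) to 1.73 ± 2.56 (SD, n = 7 *Tet2/3* DKO mice). This was a log2 fold change of -4.64 with SE 0.609 and an edgeR adjusted p of 4.59e-06. Its arms had no counts in WT and 7 in *Tet2/3* DKO, 2 on 5p and 5 on 3p, so the loss was not measurable in the mature table.

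The hairpin mir-7086 lies at chr9:45266643-45266707 (minus strand) in an intron of 457 bases of *Il10ra*, which encodes the ligand-binding chain of the IL-10 receptor. It had 10 to 33 counts in WT (median 27) and 0 to 12 in *Tet2/3* DKO (median 5). In CPM the lowest WT mouse (10.6) was below the highest *Tet2/3* DKO mouse (14.2), and the other mice did not overlap. The means were 38.6 ± 22.2 and 3.56 ± 4.80 CPM, with a log2 fold change of -3.58 (SE 0.612) and an adjusted p of 8.55e-05 by edgeR.

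The hairpin mir-7049 lies at chr7:28560925-28560984 (minus strand) in an intron of 1613 bases of *Pak4*, a p21-activated kinase of the cytoskeleton. It had 2 to 30 counts in WT (median 20) and 1 to 20 in *Tet2/3* DKO (median 5), and the genotypes overlapped. The means were 26.7 ± 22.7 and 4.67 ± 4.26 CPM, and the log2 fold change was -2.44 (edgeR, SE 0.657, adjusted p = 0.00333). Its 5p arm had raw totals of 5 counts in WT and 17 in *Tet2/3* DKO, whose libraries were deeper on average.

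The hairpin mir-7003 lies at chr2:163068090-163068155 (plus strand) in an intron of 3655 bases of *Mybl2*, a transcription factor of dividing cells. It had 24 to 64 counts in WT (median 45) and 47 to 96 in *Tet2/3* DKO (median 61), or 62.0 ± 19.9 and 41.6 ± 8.85 CPM. The log2 fold change of -0.57 (edgeR, SE 0.235, adjusted p = 0.0435) was just past the threshold and kept that side of it in only 3 of 13 fits that each left out 1 mouse, between -0.66 and -0.43. Scaled by library size alone it was -0.23 (adjusted p = 0.440 by edgeR).

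The most counted hairpin, mir-7034, was not called. It lies at chr5:135735806-135735889 (minus strand) and fills all but the first 7 bases of an intron of 91 bases of *Tmem120a*, which encodes a membrane protein. It had 107 to 307 counts in WT (median 207.5) and 345 to 673 in *Tet2/3* DKO (median 519), or 279 ± 87.0 and 314 ± 73.9 CPM, and the genotypes overlapped. The log2 fold change was 0.17 (edgeR, SE 0.191, adjusted p = 0.463), and it was 0.52 (adjusted p = 0.0351 by edgeR) with library size only. That scaling moved the median of all tested hairpins up by 0.34, so relative to the median the change was of like size under both.

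The hairpins mir-7035 and mir-6916 did not pass the test either. The first lies at chr5:136105522-136105603 (plus strand) in *Rasa4*, a GTPase-activating protein of Ras, inside a retained-intron transcript, and had 6 to 24 counts in WT (median 9.5) and 0 to 43 in *Tet2/3* DKO (median 18), with a log2 fold change of -0.75 (edgeR, SE 0.533, adjusted p = 0.231). The second lies at chr10:128511968-128512030 (minus strand) in an intron of 90 bases of *Esyt1*, which tethers the endoplasmic reticulum to the plasma membrane. Its hairpin had 2 to 20 counts in WT (median 5.5) and 4 to 24 in *Tet2/3* DKO (median 10), with a log2 fold change of -0.22 (edgeR, SE 0.512, adjusted p = 0.723). Its arm miR-6916-5p gave -0.56 (edgeR, SE 0.559, adjusted p = 0.403), from 1 to 12 counts in WT (median 7.5) and 3 to 16 in *Tet2/3* DKO (median 12).

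Among the mature sequences miR-7009-3p gave the smallest p. Its hairpin lies at chr3:36475461-36475524 (minus strand) in an intron of 112 bases of *Anxa5*, annexin A5, a protein that binds phosphatidylserine. It had 47 to 105 counts in WT (median 62.5) and 1 to 20 in *Tet2/3* DKO (median 10), without overlap, as for 27.2% of all tested mature sequences, although the *Tet2/3* DKO libraries were the deeper ones. The means were 39.5 ± 9.84 and 3.25 ± 2.21 CPM, and the log2 fold change was -3.61 (edgeR, SE 0.381, adjusted p = 9.52e-08). The 5p arm of this hairpin is not listed in the table.

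The 5p arm of mir-6990 comes from a hairpin at chr19:6914196-6914286 (minus strand) in an intron of 5867 bases of *Esrra*, a nuclear receptor that controls mitochondrial genes, where a processed *Esrra* transcript also has an exon. It had 7 to 17 counts in WT (median 13) and 0 to 6 in *Tet2/3* DKO (median 1), without overlap in CPM, and the means were 7.78 ± 4.11 and 0.633 ± 0.949 CPM. The log2 fold change was -3.73 (edgeR, SE 0.661, adjusted p = 6.21e-05). The hairpin of the same miRNA had raw totals of 10 counts in WT and 24 in *Tet2/3* DKO, whose libraries were deeper on average. It was not tested.

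The 3p arm of mir-6946 comes from a hairpin at chr14:20690635-20690703 (plus strand) in an intron of 683 bases of *Sec24c*, a subunit of the COPII vesicle coat. It had 7 to 22 counts in WT (median 15.5) and 0 to 13 in *Tet2/3* DKO (median 4), with overlap, and the means were 9.79 ± 6.58 and 1.64 ± 2.07 CPM. The log2 fold change was -2.63 (edgeR, SE 0.655, adjusted p = 0.00186). Its 5p arm had 50 counts in WT and 23 in *Tet2/3* DKO, and its hairpin had 45 and 69. These totals are not scaled to depth. The *Tet2/3* DKO libraries were more numerous and deeper on average, so a higher raw total there does not show a rise. After the count filter only mir-6916 was tested in both tables, and edgeR called it in neither. For the other tested miRNAs this filter left no comparison between the tables. In the settings below that admit rarer rows, edgeR and DESeq2 both called the 2 arms of mir-6946 lower, and neither called its hairpin. Of the hairpins of the range called in any of these fits, only mir-6987 and mir-7072 also had a called arm.

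**Figure D4:**
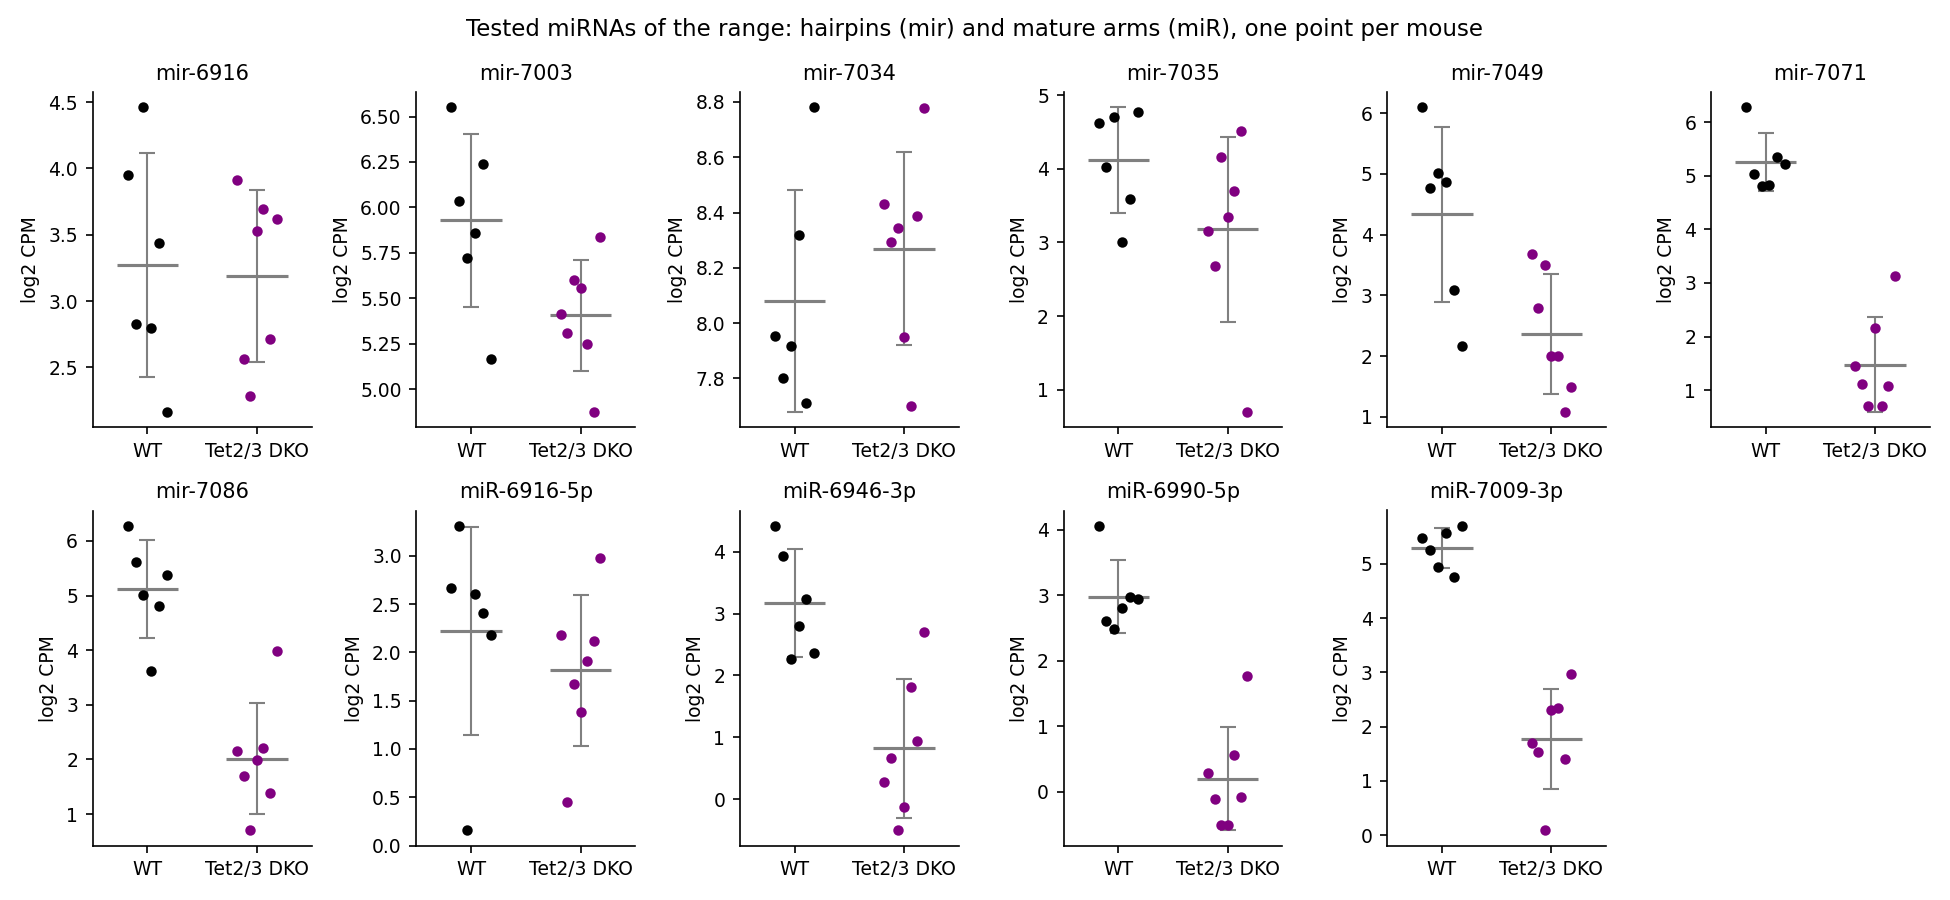
Level (log2 CPM, prior count 2) of the 7 tested hairpins (mir) and 4 tested mature sequences (miR) in each mouse, with the mean and SD of WT (black, n = 6) and *Tet2/3* DKO (purple, n = 7). The axes differ between panels and do not start at 0. The genotypes do not overlap for mir-7071, miR-6990-5p and miR-7009-3p.

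Depth moved with these levels. The shallowest WT library had the highest level of its genotype for 6 of the 11 tested sequences and the shallowest *Tet2/3* DKO library for 8 of the 11. Without these libraries the log2 fold changes were -4.97 for mir-7071, -3.97 for mir-7086, -1.87 for mir-7049, -3.81 for miR-7009-3p, -4.20 for miR-6990-5p and -2.91 for miR-6946-3p, all still past the threshold, and -0.51 for mir-7003, which no longer was (adjusted p = 0.0628 by edgeR).

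Markers of some other cell types also moved with genotype, while those of epithelium and endothelium were not called. Summed levels of the T cell hairpins mir-142a, both copies of mir-181a, mir-150 and mir-155 ranged from 176248 to 207755 CPM in WT and from 165303 to 225614 CPM in *Tet2/3* DKO, and all 5 were called, 2 lower and 3 higher. The red cell hairpins mir-451a, mir-144 and mir-486a together ranged from 463 to 1239 CPM in WT and from 93.2 to 344 CPM in *Tet2/3* DKO, and both of the 2 tested were lower. Stromal hairpins (mir-145a, mir-143, mir-199a-1 and mir-214) ranged from 36.6 to 99.2 CPM in WT and from 6.18 to 24.8 CPM in *Tet2/3* DKO, with both of the 2 tested lower. The hepatocyte hairpin mir-122, which was not tested, ranged from 4.25 to 22.8 CPM in WT and from 0 to 2.99 CPM in *Tet2/3* DKO. Epithelial hairpins (mir-200c, mir-141 and mir-205) ranged from 87.2 to 102 CPM in WT and from 87.8 to 120 CPM in *Tet2/3* DKO, and the endothelial mir-126a was between 102 and 235 and between 95.6 and 145 CPM, with none of the tested ones called. None of these markers was at 0 in all mice, and their part in the falls described above was not tested.

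On the same TMM-scaled CPM, the 178 hairpins that were not tested summed to 369 ± 97.7 in WT and 211 ± 40.2 in *Tet2/3* DKO, or to 326 ± 98.4 and 236 ± 47.4 when scaled by library size only. The 599 untested hairpins of other numbers had 1529 ± 438 and 776 ± 193 TMM-scaled CPM, so the rare hairpins outside the range were also lower on average. The 270 untested mature sequences summed to 118 ± 27.1 TMM-scaled CPM in WT and 82.3 ± 11.8 in *Tet2/3* DKO (107 ± 24.4 and 89.0 ± 14.0 by library size only), against 490 ± 90.7 and 379 ± 54.5 for 626 untested others. By arm, on the TMM-scaled CPM, the 3p sequences of the range summed to 82.6 ± 14.95 in WT and 32.1 ± 9.60 in *Tet2/3* DKO, but to 43.1 ± 13.1 and 28.8 ± 7.92 without miR-7009-3p, and the 5p sequences to 96.9 ± 21.4 and 59.0 ± 12.4.

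Settings that admit rarer rows called more of them, nearly all lower in *Tet2/3* DKO, although the fold changes of the range went both ways. With edgeR on all rows, 108 hairpins of the range had a log2 fold change below 0 and 75 above. Of the mature sequences 119 were below 0 and 152 above. By DESeq2 it was 122 and 61 hairpins, and 174 and 97 mature sequences. With every row that had a count, edgeR called 17 hairpins of the range lower and 1 higher of 183, where 14% of all 1115 hairpins were lower and 11.8% higher. DESeq2 called 15 lower and 0 higher of the 92 that it gave an adjusted p, against 22.6% lower and 15% higher of all 725. In the mature table edgeR called 19 lower and 0 higher of 271 (11% lower and 10.1% higher of all 1286) and DESeq2 called 10 lower and 0 higher of 57 (18.5% lower and 18.8% higher of all 685). The share of the range called lower was below that of all rows in each case. It was 9.29% (edgeR) and 16.3% (DESeq2) of hairpins, and 7.01% and 17.5% of mature sequences. Of the calls made by edgeR on all rows, 5 hairpins and 10 mature sequences had at most 10 counts over the 13 libraries, and a mature sequence with 3 counts in all was among them. At an unadjusted p under 0.05, edgeR on all rows had 6 hairpins and 17 mature sequences of the range higher (27 and 36 lower), and DESeq2 had 1 and 0 higher (17 and 14 lower of those with an adjusted p). Both of these settings called 10 hairpins and 9 mature sequences.

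One of the hairpins that both settings called was mir-7058, whose intron of 75 bases in *Lat*, the adaptor that links the T cell receptor to its signalling enzymes, is the whole hairpin (chr7:126367971-126368045, minus strand). Its counts were 5, 15, 4, 23, 6 and 10 in WT and 7, 6, 3, 5, 4, 9 and 0 in *Tet2/3* DKO. The log2 fold change was -2.16 (adjusted p = 0.0105 by edgeR on all rows) and -2.44 (adjusted p = 0.000168 by DESeq2). Its arm miR-7058-5p had 68 counts in WT and 55 in *Tet2/3* DKO, was present in all 13 libraries and was called by neither setting. The retained-intron transcript of *Lat* holds the same sequence.

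Other hairpins called by both were mir-7072, in *Nlrc5*, the transactivator of MHC class I genes, with 0 to 21 counts in WT (median 9) and 1 to 6 in *Tet2/3* DKO (median 3), and mir-7088, which is a whole intron of *Mst1*, with 1 to 19 in WT (median 8.5) and 0 to 13 in *Tet2/3* DKO (median 0). The hairpin mir-6933, in *Pgs1*, had 4 to 11 counts in WT (median 6.5) and 0 to 5 in *Tet2/3* DKO (median 2). The hairpin mir-7082 was the one called higher by edgeR on all rows. It had no counts in any WT library and 10, 2, 0, 8, 8, 0 and 3 in *Tet2/3* DKO, and DESeq2 did not call it (adjusted p = 0.102).

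Both settings also called mir-6926 (0 to 14 counts in WT, 0 to 3 in *Tet2/3* DKO) and mir-7084 (0 to 34 and 0 to 11) lower among the hairpins that reached 10 counts in a library, and miR-6907-3p, miR-6937-5p, miR-6946-5p, miR-7001-5p and miR-7080-5p among the mature sequences. DESeq2 alone called mir-6936, mir-7070 and miR-7072-5p lower, and edgeR on all rows alone called mir-7093 lower.

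The rows named next also reached 10 counts in a library and were called by none of these settings. The hairpin mir-6994, in *Patl1*, a factor of mRNA decapping, had 2 to 13 counts in WT (median 3) and 5 to 30 in *Tet2/3* DKO (median 13). The hairpin mir-6957 lies in *Grap2*, an adaptor of T cell receptor signalling, and had 0 to 8 counts in WT (median 1.5) and 2 to 20 in *Tet2/3* DKO (median 6), while mir-6996, in *Notch1*, a receptor that directs T cell development, had 0 to 2 and 0 to 10. The hairpins mir-6967-1 and mir-6967-2 had the same counts in every library, 129 each in all, so their reads could not be told apart and are in the sums above for both copies. Among the mature sequences miR-6924-5p had 1 to 13 counts in WT (median 2) and 7 to 17 in *Tet2/3* DKO (median 13), and miR-7082-3p had 3 to 13 (median 4) and 0 to 15 (median 8).

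Whether the miRNAs of the range need DROSHA was not tested. For comparison, 8 miRNAs outside the range that are known to be made without DROSHA did not share one direction. These are the mirtrons mir-702, mir-877, mir-1224, mir-1981 and mir-3102, the capped hairpins mir-320 and mir-484, whose 5′ end is set by transcription, and mir-1839, which is cut from a small nucleolar RNA. Of the 5 tested hairpins, mir-484 was lower (log2 fold change -0.89, SE 0.121, adjusted p = 5.77e-06 by edgeR), mir-1839 was lower by a margin that scaling by library size only turned to 0.075 (-0.27, adjusted p = 0.0483 by edgeR) and mir-1981 was higher (0.77, SE 0.260, adjusted p = 0.0167 by edgeR). The hairpins mir-320 (-0.29, adjusted p = 0.0530 by edgeR) and mir-877 (-0.02, adjusted p = 0.945 by edgeR) were not called. In the mature table miR-484 (-0.83) and miR-320-3p (-0.62) were lower, miR-877-5p was higher (0.87), and miR-877-3p, both arms of mir-1839 and miR-1981-5p were not called. Among mirtrons that are not in the range, mir-702, mir-1224 and mir-3102 had too few counts to be tested, with totals of 22, 37 and 52 hairpin counts.

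**Figure D5:**
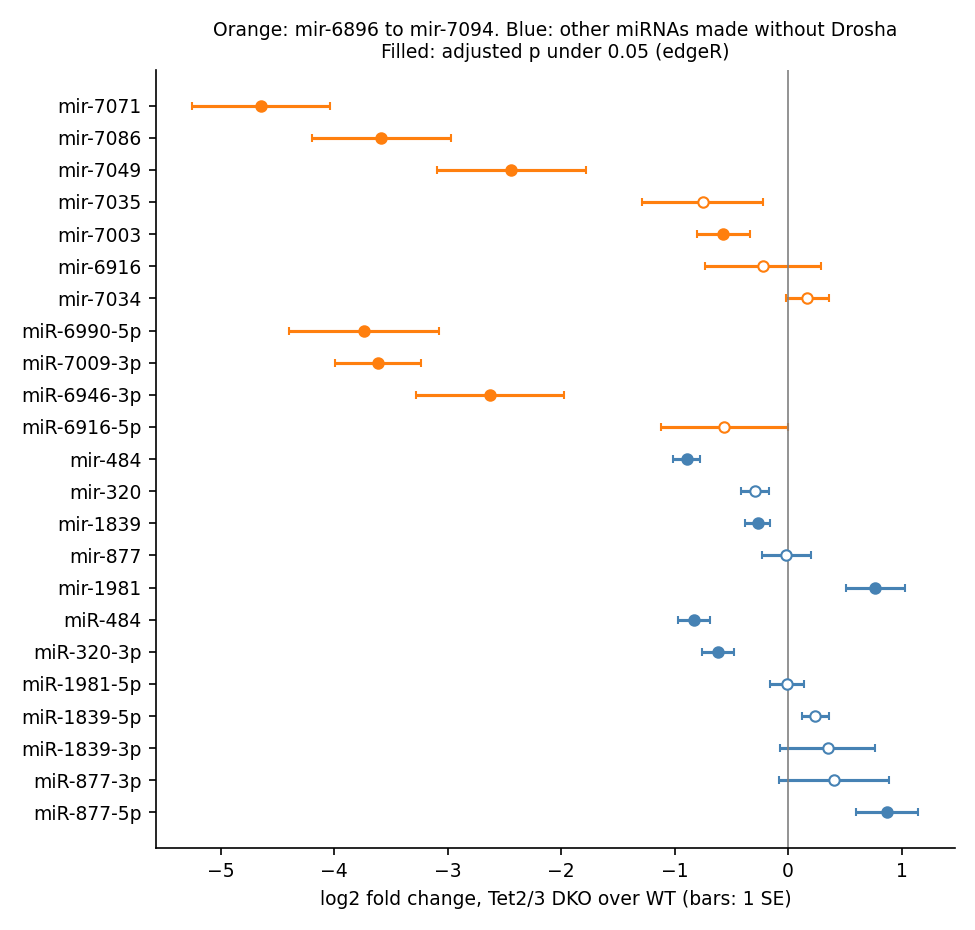
log2 fold change of *Tet2/3* DKO over WT with 1 SE (edgeR) for the tested hairpins and mature sequences in the range mir-6896 to mir-7094 (orange) and for the tested members of 8 miRNAs outside the range that are made without DROSHA (blue), filled where the adjusted p was under 0.05. The orange values reach from -4.64 (mir-7071) to 0.17 (mir-7034) and the blue ones from -0.89 (mir-484) to 0.87 (miR-877-5p).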

How the data were processed

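Small RNA was sequenced from thymic iNKT cells of 6 WT and 7 *Tet2/3* DKO mice, and samples were grouped by their titles. The values deposited by the authors are output of nf-core/smrnaseq at default settings, as raw counts per hairpin and per mature sequence, without normalization. The build mm10 is given in the submitters' processing notes, and the aligner, the miRNA database release and the handling of reads that match several sequences are not given in the sources used here. Reads carry no molecular identifiers in these tables, so counts are not independent molecules. All columns were matched to mice, and 0 were left unused. The comparisons between genotypes used no values from the authors.

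In edgeR 4.0.16, rows had to pass filterByExpr (at least 10 counts in enough libraries, 15 in all) and were scaled by TMM and fitted with genotype only by the robust quasi-likelihood test over each whole table, with Benjamini-Hochberg adjustment and a threshold of 0.05. SEs were derived from the fold change and its F statistic. Other tools were DESeq2 1.42.0 in R 4.3.3, and matplotlib 3.10.9 in Python 3.11.15. On simulated data, edgeR called 71 of 71 hairpins and 61 of 61 mature sequences that were changed and passed the count filter. It made 1 false call in each table. The change put in was a log2 fold change of 2, up or down, in rows drawn from the whole table. These numbers hold only for that size, and recovery of rows as rare as those of the range was not assessed apart. Recovery of changed rows that the filter removed was not tested. Libraries of a genotype always differed by more than sampling noise (chi-square per degree of freedom at least 15.0 and 20.2). Hairpins were matched by name to RefSeq and placed in GENCODE M21 introns. RefSeq and GENCODE use GRCm38, the assembly also called mm10, and the count tables hold no coordinates.

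The range of numbers, the marker and comparison lists and the alternatives were chosen with earlier results of these data known. Named were the tested rows with both hairpin and arm, rows with at least 10 counts in a library, mir-7058, rows that share a seed with a tested row, and the 8 miRNAs outside the range that are made without DROSHA. Which of the rows with at least 10 counts are described was chosen after seeing their values. The alternatives were RLE, library size only and upper quartile scaling, all rows with counts, DESeq2, identical rows once, replicate number as a block, leaving out each mouse, sums on the TMM-scaled library, sums without the most counted row and, chosen after seeing the data, leaving out both shallowest libraries.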

Additional observations from a re-analysis of the deposited data

Results flagged for a closer look

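Among 26 groups of 6 or 7 mice, 4 held a mouse far from the others of its genotype by Dixon's criterion, where chance gives about 1 in 20 groups, or about 1 here. The share of hairpin counts on the range was 0.107% in WT replicate 1, and the next WT mouse had 0.0757%. The level of mir-7071 in the same library was 6.28 log2 CPM, with the next WT mouse at 5.35, and that of miR-6990-5p was 4.06, with the next at 2.97. WT replicate 1 was the shallowest WT library, and the part of depth in these values was not tested. The level of miR-6916-5p in WT replicate 3 was 0.16 log2 CPM, from 1 count, with the next WT mouse at 2.18. The log2 fold changes of mir-7071 and miR-6990-5p without any 1 mouse were between -5.25 and -4.37 and between -4.58 and -3.51.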

How the results depend on the processing

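Calls of the range numbered 4 hairpins and 3 mature sequences, and rose to 18 and 19 with all rows with counts and to 15 and 10 with DESeq2, which test more rows. Leaving out 1 mouse at a time gave 2 to 4 hairpins (2 without *Tet2/3* DKO replicate 1, where mir-7049 was not tested and mir-7003 missed the threshold) and 3 to 5 mature sequences (5 without WT replicate 2, which added miR-7058-5p and miR-7080-5p). The labels do not say whether replicate numbers pair the mice. Deviations of mice with the same number correlated between -0.05 and 0.34 for hairpins and between 0.01 and 0.34 for mature sequences. Mice with different numbers were not compared, so these values cannot show whether some mice were paired. With the replicate block the calls were again 4 and 3, but that fit left out *Tet2/3* DKO replicate 7 and so did not use the same mice. The log2 ratio of the mean hairpin share was -0.16, moved to -0.50 on the TMM-scaled library and to -0.67 without mir-7034, and was between -0.25 and -0.03 without single mice. That of the mature share was -0.73, moved to -0.43 without miR-7009-3p, and was between -0.81 and -0.63 without single mice. On the TMM-scaled library the mature gap was wider. The means in WT and *Tet2/3* DKO were 96.9 and 59.0 CPM for 5p and 82.6 and 32.1 for 3p sequences. By library size only they were 88.5 and 63.7, and 75.5 and 35.0. Library size only lost mir-7003, added mir-7034 as higher and turned mir-1839 to 0.075. Of 213 refits of single sequences of the range, 198 kept direction and side of the threshold, 14 lost the call, all of them of mir-7003, 1 gained it and 0 reversed. Depth limits most rows, which stayed under 10 counts in every mouse.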
